A study of Mus musculus with 2 samples.

Results

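The genes described here encode the enzymes and transporters that carry glucose to lactate, and the transcriptional response to low oxygen, in mouse CD8 T cells cultured toward interleukin-17 production (Tc17 cells). They were chosen by name as 34 members, 23 of glucose uptake and glycolysis and 11 of the hypoxia response, out of 32245 gene symbols in the count matrices. All 34 were found, and each had at least 1 count in each library. They lay on 35 of the 32285 gene entries, because the symbol Aldoa stands on 2 entries, the second of which held 0 and 1 counts and was added to the first.

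The study compared 2 single-cell libraries made with the 10x Genomics 3′ kit, which counts unique molecular identifiers (UMIs, 1 per captured transcript end). The first held CD8 T cells from mice with floxed Nfatc1 and Cd4-Cre, a transgene that deletes floxed alleles in T cells from the CD4-expressing thymic stage on. The second held CD8 T cells from wild-type mice. Both came from C57/B6N mice, from mesenteric lymph nodes, and both were polarised with a Th17 cytokine and antibody kit and then stimulated for 3 h with 100 ng/ml of PMA plus 10 μg/ml of ionomycin, so no resting cells are included. The labels name no ages and do not say how many mice or cultures went into a library.

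After barcodes with under 500 genes or over 10% mitochondrial UMIs were left out, 709 of 754 barcodes remained in the library labelled Nfatc1-deficient and 1018 of 1149 in the library labelled wild type. The median cell had 21436 UMIs in the library labelled Nfatc1-deficient and 20906 UMIs in the library labelled wild type, and the sums were 17898193 UMIs in deficient-labelled and 24452538 UMIs in wild-type-labelled cells. The libraries shared 0 cell barcodes. Nfatc1, the targeted gene, stood at 136 CPM (UMIs scaled to the same library total) in the library labelled Nfatc1-deficient, against 39.8 CPM in the library labelled wild type. That order goes against the genotype, and a 3′ count outside the deleted part does not check a deletion, so the libraries are called deficient-labelled and wild-type-labelled. At least 3 of 10 T-cell and CD8 markers were detected in 99.7% of cells in the deficient-labelled library and 99.6% in the wild-type-labelled library. Of the lists for other cell types, the myeloid list of 10 genes summed to 0.559 CPM in deficient-labelled and 1.02 CPM in wild-type-labelled cells, with S100a8, S100a9, C1qa and C1qb at 0 in both libraries, and the natural killer list of 7 genes to 2.46 CPM in deficient-labelled and 7.93 CPM in wild-type-labelled cells, with Ncr1 and Klrb1c at 0. The dendritic list summed to 16.7 CPM in deficient-labelled and 80.2 CPM in wild-type-labelled cells, with Siglech and Clec9a at 0 in both, and the B, erythroid and stromal lists to between 0.654 and 29.3 CPM. Ribosomal protein genes took 22.4% of UMIs in deficient-labelled and 27.8% in wild-type-labelled cells. The part of these differences in the results below was not tested. With 1 library per group there was no replicate check and no test, and every interval below is a 95% counting interval that leaves out the spread between cells, mice and cultures.

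Glycolysis splits glucose into pyruvate in the cytosol, and activated T cells turn much of that pyruvate into lactate, which is exported together with protons. When oxygen is low, or when antigen receptor and mTOR signals raise its synthesis, HIF-1α pairs with ARNT and binds the letters ACGTG or GCGTG in its target promoters. Prolyl hydroxylases of the EGLN family mark HIF-1α for destruction in oxygenated cells and are themselves among its targets, as are most of the glycolytic genes. In T cells HIF-1α is known for promoting glycolysis and type 17 differentiation.

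The promoters of the members differed in how often they held those letters. The window was the 250 bases before the start of each gene in RefSeq (GRCm38.p6), searched on both strands, and 31 of the 34 members had an entry, all except Slc2a3, Bnip3l and Ndrg1. ACGTG was found in 9 of 22 glycolysis promoters and in 6 of 9 hypoxia response promoters, against 16.5% of 27025 promoters of all genes. GCGTG was found in 16 of the 31, against 28.3% of all promoters. The palindrome CACGTG, which is also the E-box read by MYC and its relatives, was found in 5 of the 31 and counts as 2 overlapping ACGTG matches. The shares were not matched for base content, and G and C made up from 36.4% (Pfkm) to 86% (Egln1) of a member's window. The part of base content in these shares was not tested. Each match describes letters and does not show that a factor binds there.

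A set of 6 promoters is printed 5′ to 3′ on the strand of the gene, ending at the base before the start, with ACGTG or GCGTG on either strand in capitals. Gapdh (chr6:125165774-125166023, minus strand) and Pkm (chr9:59656326-59656575, plus strand) are the glycolysis members with the most counts. Vegfa (chr17:46032378-46032627, minus strand) and Egln3 (chr12:54203875-54204124, minus strand) are the members furthest apart between the libraries among those of at least 20 CPM. Pgk1 (chrX:106186850-106187099, plus strand) and Ldha (chr7:46845554-46845803, plus strand) were added after their values were seen, because both differed between the cytokine classes described below.
Gapdh: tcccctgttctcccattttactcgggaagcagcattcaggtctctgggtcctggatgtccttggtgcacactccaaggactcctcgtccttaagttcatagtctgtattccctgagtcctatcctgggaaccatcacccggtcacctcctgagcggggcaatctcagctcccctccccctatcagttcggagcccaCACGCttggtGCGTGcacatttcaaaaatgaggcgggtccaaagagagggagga
Pkm: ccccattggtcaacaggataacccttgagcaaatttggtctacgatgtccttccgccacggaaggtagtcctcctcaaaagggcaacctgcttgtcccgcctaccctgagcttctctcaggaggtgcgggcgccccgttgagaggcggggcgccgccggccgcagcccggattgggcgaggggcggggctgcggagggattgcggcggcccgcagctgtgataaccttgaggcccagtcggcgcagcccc
Vegfa: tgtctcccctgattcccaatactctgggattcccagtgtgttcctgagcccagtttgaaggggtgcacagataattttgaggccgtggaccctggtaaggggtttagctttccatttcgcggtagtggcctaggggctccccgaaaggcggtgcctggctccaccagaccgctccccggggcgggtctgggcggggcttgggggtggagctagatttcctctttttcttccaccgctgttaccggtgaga
Egln3: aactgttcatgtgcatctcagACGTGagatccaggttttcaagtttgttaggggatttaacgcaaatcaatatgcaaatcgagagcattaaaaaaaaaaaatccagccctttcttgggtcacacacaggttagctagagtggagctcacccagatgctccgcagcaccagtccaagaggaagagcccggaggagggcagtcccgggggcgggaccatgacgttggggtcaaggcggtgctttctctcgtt
Pgk1: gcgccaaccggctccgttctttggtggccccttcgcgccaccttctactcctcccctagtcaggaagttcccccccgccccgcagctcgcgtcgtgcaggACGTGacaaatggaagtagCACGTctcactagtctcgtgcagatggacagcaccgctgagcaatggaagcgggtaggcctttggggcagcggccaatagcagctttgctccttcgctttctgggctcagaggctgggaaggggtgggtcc
Ldha: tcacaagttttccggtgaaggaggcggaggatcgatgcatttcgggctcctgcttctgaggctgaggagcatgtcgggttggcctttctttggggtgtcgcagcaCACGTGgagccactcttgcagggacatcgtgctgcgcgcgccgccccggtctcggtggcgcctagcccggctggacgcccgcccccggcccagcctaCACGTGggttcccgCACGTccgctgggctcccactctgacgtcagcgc
The Ldha window held 5 ACGTG matches, 4 of them in 2 CACGTG palindromes, at -145, -144, -48, -47 and -34 from the start. Pgk1 held 2, at -150 and -131, and Egln3 held 1, at -229. Gapdh held 2 GCGTG matches and 0 of ACGTG, while the Vegfa and Pkm windows held neither motif. Vegfa is a long-known HIF target whose response element lies further upstream than this window.

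Counts ran over 3 orders of size among the members. The 3′ kit counts transcript ends, but whether introns were counted and how counts were divided among gene copies are not known. Levels of different genes are therefore compared only roughly. Gapdh, the glyceraldehyde-3-phosphate dehydrogenase that yields the NADH of glycolysis, had the highest level, with 786 CPM in deficient-labelled cells and 1048 CPM in wild-type-labelled cells. Pkm, the pyruvate kinase of the last step, followed at 681 CPM in deficient-labelled and 596 CPM in wild-type-labelled cells, then Aldoa, the main aldolase, at 447 CPM in deficient-labelled and 486 CPM in wild-type-labelled cells. Pfkm, the muscle form of phosphofructokinase, had the lowest, at 0.559 CPM in deficient-labelled and 0.818 CPM in wild-type-labelled cells, from 10 UMIs in deficient-labelled and 20 UMIs in wild-type-labelled cells. The 23 glycolysis genes together took 0.368% of UMIs in deficient-labelled cells and 0.432% in wild-type-labelled cells. The 11 hypoxia genes took 0.0595% in deficient-labelled and 0.0655% in wild-type-labelled cells. Hif1a alone, the oxygen-regulated subunit itself, made up 32.2% of those UMIs in deficient-labelled and 30.8% in wild-type-labelled cells.

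**Figure D1:**
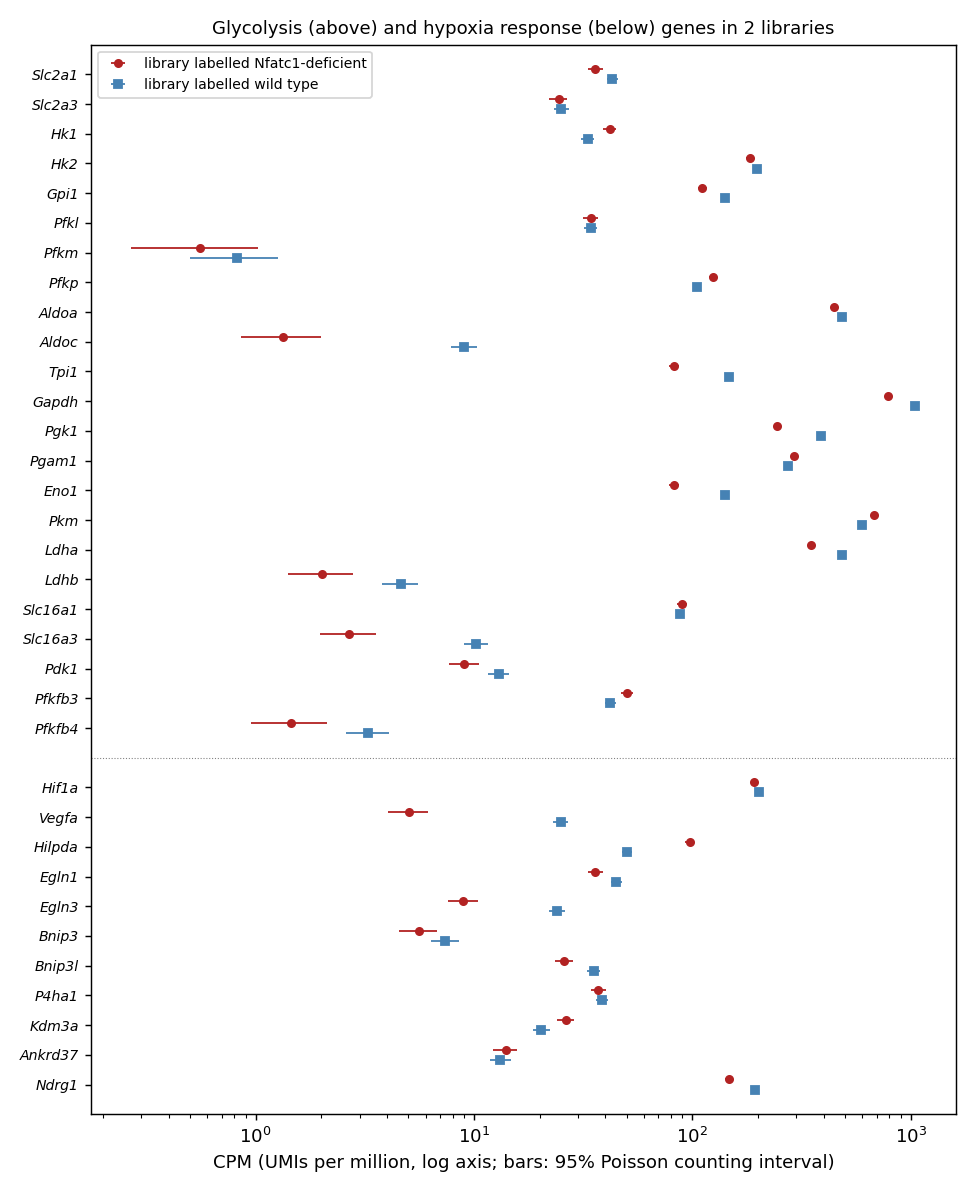
CPM of each member (log axis) in the library labelled Nfatc1-deficient (circles) and in the library labelled wild type (squares), with 95% Poisson counting intervals; glycolysis genes stand above the dotted line and hypoxia response genes below it. Gapdh, Pkm and Aldoa lie furthest right, and the widest gaps between the libraries are those of Aldoc, Slc16a3, Vegfa and Egln3.

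Several steps of the lower pathway were less abundant in deficient-labelled cells, while the upper steps were closer to level. Tpi1 (chromosome 6, 124810586 to 124814296), the triosephosphate isomerase that interconverts the products of aldolase, stood at 82.7 CPM in deficient-labelled cells and 147 CPM in wild-type-labelled cells, 1.78-fold lower (1.67 to 1.89). Eno1 (chromosome 4, 150236721 to 150248879), encoding enolase 1, was 1.71-fold lower (1.60 to 1.81), at 82.6 CPM in deficient-labelled against 141 CPM in wild-type-labelled cells. Pgk1 (chromosome X, 106187100 to 106203699), the phosphoglycerate kinase that makes the first ATP, was 1.59-fold lower (1.54 to 1.65), at 244 CPM in deficient-labelled against 388 CPM in wild-type-labelled cells. These 3 were the glycolysis members of at least 20 CPM past 1.5-fold, and the scarcer Aldoc, Slc16a3, Ldhb and Pfkfb4, described below, were past it as well. Gapdh was 1.33-fold lower (1.31 to 1.36), and it lies between Tpi1 and Pgk1 in the pathway. Pgam1, the phosphoglycerate mutase between Pgk1 and Eno1, did not share that order, with 293 CPM in deficient-labelled cells and 276 CPM in wild-type-labelled cells. Pkm was higher in deficient-labelled cells by 0.19 on the log2 scale. Neighbouring steps thus stood in opposite orders. Eno1 has a near-identical copy, Eno1b, which was counted at 1.73 CPM in deficient-labelled and 2.54 CPM in wild-type-labelled cells, and several of these enzymes have processed pseudogenes in the mouse genome, so how counts were divided among copies is uncertain.

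Among the upper steps, Hk2, the inducible hexokinase that traps glucose in the cell, had 183 CPM in deficient-labelled cells and 198 CPM in wild-type-labelled cells. Hk1, the constitutive hexokinase, ran the other way, at 41.8 CPM in deficient-labelled and 33.2 CPM in wild-type-labelled cells. Gpi1, the glucose-6-phosphate isomerase, was 1.27-fold lower (1.20 to 1.34), at 111 CPM in deficient-labelled against 141 CPM in wild-type-labelled cells. Phosphofructokinase was carried mainly by Pfkp, the platelet form, at 125 CPM in deficient-labelled and 105 CPM in wild-type-labelled cells, with Pfkl, the liver form, level at 34.2 CPM in deficient-labelled and 34.3 CPM in wild-type-labelled cells. Aldoa was 1.09-fold lower (1.06 to 1.12), a difference whose sign turned in thinned cells and with equal weight for each cytokine class, at 0.083 in thinned cells and 0.040 with equal weights on the log2 scale, deficient-labelled over wild-type-labelled. Its paralogue Aldoc (chromosome 11, 78322968 to 78327781), best known from brain, had only 24 UMIs in deficient-labelled cells and 221 in wild-type-labelled cells, at 1.34 CPM in deficient-labelled against 9.04 CPM in wild-type-labelled cells. That made it the member with the widest fold, 6.74-fold lower (4.41 to 10.7), below the 20 CPM needed for the counts of members past a fold.

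Glucose entry and lactate export gave one contrast of the same kind. Slc2a1, encoding the glucose transporter GLUT1, stood at 35.9 CPM in deficient-labelled cells and 43.1 CPM in wild-type-labelled cells, and Slc2a3, encoding the high-affinity GLUT3, at 24.4 CPM in deficient-labelled and 25.1 CPM in wild-type-labelled cells. Ldha, the lactate dehydrogenase subunit that favours lactate, was 1.39-fold lower (1.34 to 1.43), at 350 CPM in deficient-labelled against 486 CPM in wild-type-labelled cells. Ldhb, the heart-type subunit, was scarce in both and 2.30-fold lower (1.57 to 3.44), at 2.01 CPM in deficient-labelled and 4.62 CPM in wild-type-labelled cells. Slc16a1, encoding the lactate transporter MCT1, was at 89.7 CPM in deficient-labelled and 87.5 CPM in wild-type-labelled cells, with overlapping intervals. Slc16a3 (chromosome 11, 120948480 to 120960868), encoding MCT4, the exporter of strongly glycolytic cells, was 3.83-fold lower (2.80 to 5.33), at 2.68 CPM in deficient-labelled against 10.3 CPM in wild-type-labelled cells. Thus, over all cells, 1 of the 2 lactate carriers was level and the scarcer one was lower in deficient-labelled cells. The order of Slc16a3 depended on the cytokine class, as given below.

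The regulators were mixed. Pfkfb3, which makes the activator of phosphofructokinase, stood at 50.4 CPM in deficient-labelled cells and 42.2 CPM in wild-type-labelled cells. Pdk1, the kinase that shuts pyruvate out of the mitochondrial cycle, was at 9.0 CPM in deficient-labelled and 13.0 CPM in wild-type-labelled cells. Pfkfb4, at 1.45 CPM in deficient-labelled and 3.27 CPM in wild-type-labelled cells, 2.25-fold lower (1.43 to 3.65), rested on few cells, as 1 wild-type-labelled cell held 27.5% of that library's Pfkfb4 UMIs.

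The hypoxia response genes did not move as a block. Hif1a itself was nearly level, at 191 CPM in deficient-labelled cells and 202 CPM in wild-type-labelled cells, 1.05-fold lower (1.01 to 1.10). Vegfa (chromosome 17, 46016993 to 46032369), the vascular growth factor, was 4.97-fold lower (3.98 to 6.27), at 5.03 CPM in deficient-labelled against 25.0 CPM in wild-type-labelled cells. Egln3 (chromosome 12, 54178981 to 54203860), the inducible prolyl hydroxylase, was 2.69-fold lower (2.25 to 3.22), at 8.94 CPM in deficient-labelled against 24.0 CPM in wild-type-labelled cells. Egln1, the main oxygen sensor, was 1.25-fold lower (1.13 to 1.38), at 36.0 CPM in deficient-labelled against 44.9 CPM in wild-type-labelled cells. Hilpda (chromosome 6, 29272488 to 29275446), a lipid droplet protein that blocks triglyceride breakdown, was higher, at 97.6 CPM in deficient-labelled cells against 50.3 CPM in wild-type-labelled cells, 1.94-fold (1.80 to 2.09). Vegfa and Hilpda, both textbook HIF targets, thus stood at opposite ends of the list.

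The spread over cells bore on these values in different ways. A Vegfa UMI was found in 10.0% of deficient-labelled cells and 35.2% of wild-type-labelled cells, and once cells were thinned to 5000 UMIs the deficient-labelled share was 2.29% and the wild-type-labelled share 10.5%. For Hilpda the deficient-labelled share was 78.0% and the wild-type-labelled share 59.9%, against 37.1% (deficient-labelled) and 20.4% (wild-type-labelled) after thinning. No cell type that lacks these genes was present, so the share that free RNA alone would give was not measured. Bnip3, a mitophagy receptor, had 100 UMIs in the deficient-labelled library, of which 1 cell held 45, so its level of 5.59 CPM there rests on that cell, against 7.36 CPM in wild-type-labelled cells.

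Other targets lay closer together. Ndrg1, a stress-induced cytosolic protein, was 1.32-fold lower (1.26 to 1.39), at 147 CPM in deficient-labelled against 194 CPM in wild-type-labelled cells. Bnip3l, the mitophagy receptor NIX, stood at 25.9 CPM in deficient-labelled and 35.4 CPM in wild-type-labelled cells. This order was not seen when cytokine classes were compared one by one, where each interval included 1, as given below. P4ha1, a collagen prolyl hydroxylase subunit, was at 37.2 CPM in deficient-labelled and 38.6 CPM in wild-type-labelled cells. Kdm3a, a histone H3 lysine demethylase, was 1.29-fold higher (1.14 to 1.47), at 26.3 CPM in deficient-labelled cells and 20.3 CPM in wild-type-labelled cells. Ankrd37, a small ankyrin repeat protein, was at 14.0 CPM in deficient-labelled and 13.2 CPM in wild-type-labelled cells with overlapping intervals.

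**Figure D2:**
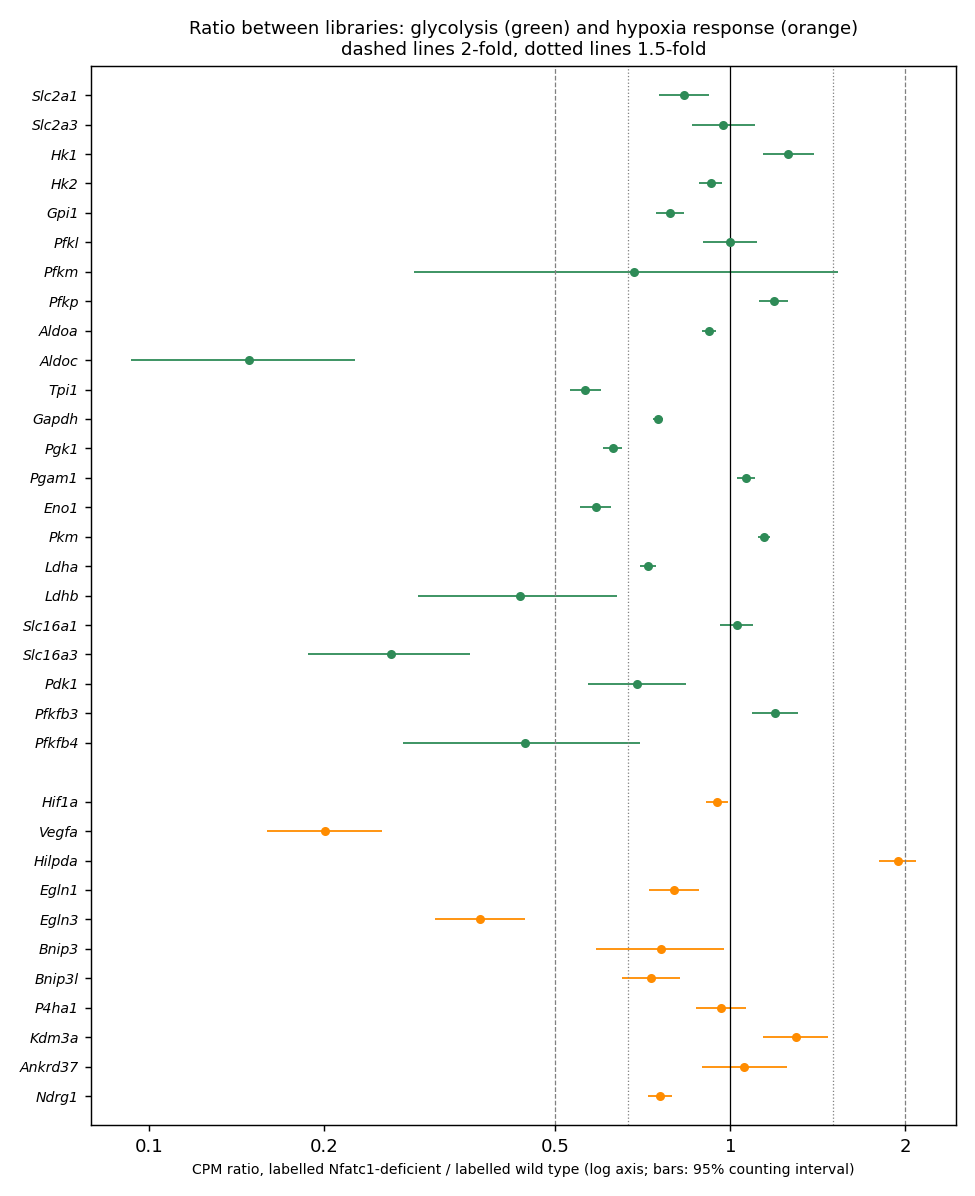
Ratio of CPM, library labelled Nfatc1-deficient over library labelled wild type (log axis), for each member with its 95% counting interval; green marks glycolysis and orange the hypoxia response, and values left of 1 are lower in the deficient-labelled library. Aldoc, Slc16a3, Vegfa and Egln3 lie furthest left, and Hilpda, at 1.94, furthest right.

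A rule of size stood in for a test: genes of at least 20 CPM in 1 library, counted as apart when the log2 ratio of CPM with a pseudocount of 1 passed the fold. Of the members 26 reached that level, 17 of glycolysis and 9 of the hypoxia response, and the counts below leave out the other 8. At least 2-fold lower in deficient-labelled cells were 2 members, Vegfa and Egln3, against 2.08% of all 5584 genes, and at least 2-fold higher were 0, against 2.27%. At 1.5-fold, 3 of 17 glycolysis members and 2 of 9 hypoxia members were lower, against 5.64% of all genes. Only Hilpda was at least 1.5-fold higher, against 6.02%. The median log2 ratio was -0.30 over 22 glycolysis members averaging at least 1 CPM, 16 of them lower, and -0.31 over 11 hypoxia members, 8 of them lower. Over all 11322 such genes the median was -0.0044, with 50.6% lower. When each cytokine class was given equal weight, 0 glycolysis members were at least 1.5-fold lower, and Pfkp passed 1.5-fold higher with a log2 ratio of 0.61.

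Further genes of the same pathways were read by the same rule. Of 50 other genes of glycolysis and its branches, 33 were measured at 1 CPM or more, with a median log2 ratio of 0.03, and of the 19 at 20 CPM none was 2-fold apart. Got1, the cytosolic aspartate aminotransferase of the malate-aspartate shuttle, was the lowest of these, at 51.5 CPM in deficient-labelled cells and 77.5 CPM in wild-type-labelled cells. Bsg, the chaperone of the lactate transporters, was at 163 CPM in deficient-labelled and 204 CPM in wild-type-labelled cells. At the other end were Tigar, which lowers the phosphofructokinase activator, at 25.1 CPM in deficient-labelled and 17.6 CPM in wild-type-labelled cells, and Rpe of the pentose phosphate path, at 26.3 CPM in deficient-labelled and 20.6 CPM in wild-type-labelled cells.

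Of 37 other hypoxia targets, 26 were measured, with a median of -0.14, and none of the 13 at 20 CPM was 2-fold apart. Higd1a and Fam162a, both mitochondrial proteins, were lowest, at 161 CPM in deficient-labelled against 212 CPM in wild-type-labelled cells and at 137 CPM in deficient-labelled against 177 CPM in wild-type-labelled cells. Tfrc, the transferrin receptor, and Gbe1, the glycogen branching enzyme, were highest, at 284 CPM in deficient-labelled against 236 CPM in wild-type-labelled cells and at 20.3 CPM in deficient-labelled against 14.3 CPM in wild-type-labelled cells. Below 20 CPM some of these targets had wide folds, as Stc2, a secreted glycoprotein, was at 0.670 CPM in deficient-labelled against 9.65 CPM in wild-type-labelled cells, 14.4-fold lower (8.09 to 28.3). Ddit4, an inhibitor of mTOR signalling, was at 3.13 CPM in deficient-labelled against 15.2 CPM in wild-type-labelled cells, 4.86-fold lower (3.66 to 6.56). Ak4, a mitochondrial adenylate kinase, was 5.07-fold lower (2.94 to 9.39), and Slc2a6, a glucose transporter family member of the wider glycolysis list, 2.75-fold lower (2.12 to 3.60). These 4 were named after their values were seen. Of 27 regulators, such as HIF partners, MYC network and mTOR pathway genes, 24 were measured, with a median of -0.03 and none of 16 past 2-fold. Irf4, which couples antigen receptor strength to metabolism, stood at 462 CPM in deficient-labelled cells and 337 CPM in wild-type-labelled cells. Akt1 was at 41.1 CPM in deficient-labelled and 55.8 CPM in wild-type-labelled cells, and Mlx, a partner of glucose-sensing factors, at 23.9 CPM in deficient-labelled and 29.4 CPM in wild-type-labelled cells. Some lists outside these pathways had medians about as low as those of the members, and others did not. The median log2 ratio was -0.40 over 51 genes of the G2/M phase, 45 of them lower in deficient-labelled cells, and -0.29 over 12 naive and quiescent T-cell genes, 8 of them lower. It was -0.07 over 42 S-phase genes, -0.12 over 10 T-cell and CD8 markers and -0.06 over 8 stress genes. The part of cell cycle and cell state in the members' medians was not tested.

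The balance between isozymes does not depend on how the libraries are scaled. MCT4 (Slc16a3) made up 2.90% of Slc16a1 and Slc16a3 UMIs in deficient-labelled cells (exact binomial 2.15 to 3.83) and 10.5% in wild-type-labelled cells (9.30 to 11.8). Egln3 made up 19.9% in deficient-labelled (17.2 to 22.8) and 34.9% in wild-type-labelled cells (32.6 to 37.2) of Egln1 and Egln3 UMIs. Aldoc made up 0.299% of aldolase UMIs in deficient-labelled and 1.83% in wild-type-labelled cells. Hk1 made up 18.6% of hexokinase UMIs in deficient-labelled (17.4 to 19.8) and 14.4% in wild-type-labelled cells (13.5 to 15.3). In 3 of these 4 families the minor form held the smaller share in deficient-labelled cells, while Hk1 held the larger. Slc2a3 also held the larger share there, with 40.5% (37.5 to 43.5) of Slc2a1 and Slc2a3 UMIs. In wild-type-labelled cells it held 36.8% (34.5 to 39.2), and these intervals overlap. Bnip3 made up 17.8% in deficient-labelled and 17.2% in wild-type-labelled cells of Bnip3 and Bnip3l UMIs, with overlapping intervals. The deficient-labelled share rests on 1 cell, which held 45 of the 100 Bnip3 UMIs there, so this balance cannot be read as level. Pfkp led phosphofructokinase with 78.2% in deficient-labelled and 75.0% in wild-type-labelled cells. Ldha made up 99.4% of lactate dehydrogenase UMIs in deficient-labelled and 99.1% in wild-type-labelled cells.

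Summed per cell, the libraries differed in their upper tail more than in their middle. At 5000 UMIs per cell, which left out 11 deficient-labelled and 14 wild-type-labelled cells as too shallow, the median cell held 17 UMIs of the 23 glycolysis genes in deficient-labelled cells (quartiles 13 to 21, range 6 to 46) and 18 in wild-type-labelled cells (quartiles 14 to 23, range 3 to 55). The variance over the mean was 2.02 in deficient-labelled cells and 3.38 in wild-type-labelled cells, where 1 is what sampling of UMIs alone gives. At least 30 glycolysis UMIs, a bound chosen after the distribution was seen, were held by 23 of 698 deficient-labelled cells (3.30%, exact binomial 2.10 to 4.90) and by 98 of 1004 wild-type-labelled cells (9.76%, 8.0 to 11.8). Of the 98, 44 were Il17a producers without Il2, in which class the share was 21.0% (15.7 to 27.1). Smaller wild-type-labelled classes had intervals that overlap this one. The share was 19.0% (8.60 to 34.1) in Il17a producers with Ifng. In Ifng producers without Il17a it was 14.3% (4.03 to 32.7) with Il2 and 13.6% (2.91 to 34.9) without Il2. In Il17a producers with Il2 it was 6.15% (3.94 to 9.08). These high cells were deeper before thinning, with medians of 34633 UMIs in deficient-labelled and 34447 UMIs in wild-type-labelled cells, against 21457 UMIs in the other deficient-labelled and 20413 UMIs in the other wild-type-labelled cells. Called G1 were 47.8% of the high deficient-labelled and 46.9% of the high wild-type-labelled cells, against 73.2% of the other deficient-labelled and 68.4% of the other wild-type-labelled cells. The part of depth and cell cycle in the tail was not tested.

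**Figure D3:**
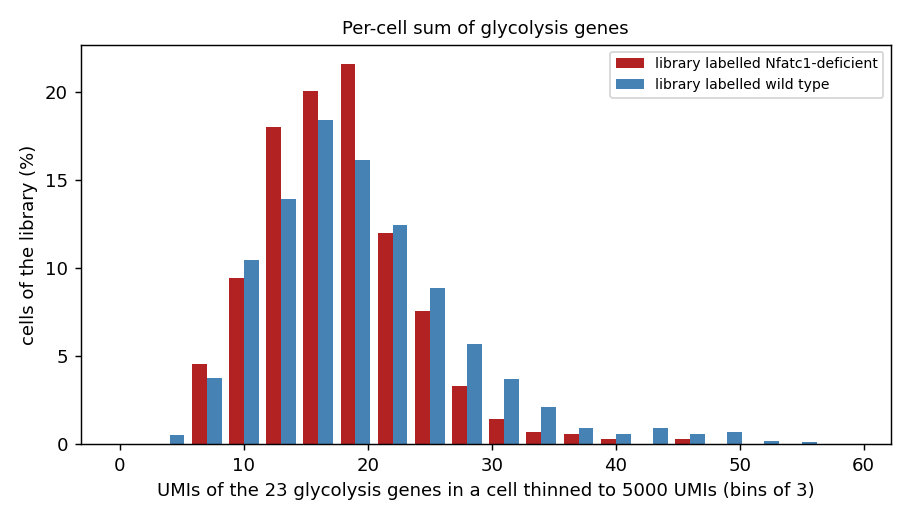
Share of cells (%) by the number of UMIs of the 23 glycolysis genes in cells thinned to 5000 UMIs, in bins of 3, for the library labelled Nfatc1-deficient (red) and the library labelled wild type (blue). The median is 17 in deficient-labelled and 18 in wild-type-labelled cells, and cells with 30 or more make up 3.30% of the deficient-labelled library and 9.76% of the wild-type-labelled library.

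The hypoxia sum was lower and narrower. Its median was 3 UMIs in each library, its range 0 to 12, and 6.45% of deficient-labelled cells and 6.27% of wild-type-labelled cells held 0. Its variance over the mean was 1.36 in deficient-labelled and 1.38 in wild-type-labelled cells. Between the glycolysis and hypoxia sums of a cell, Spearman rho was -0.0049 over 698 deficient-labelled cells and 0.03 over 1004 wild-type-labelled cells, values too weak to read in counts this sparse. Between the glycolysis sum and the depth of the cell before thinning, rho was 0.13 in deficient-labelled and 0.33 in wild-type-labelled cells. Cells of a library share their preparation.

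Some glycolytic genes varied together from cell to cell. Over 14 members with enough counts, thinned to 10000 UMIs, the highest rho in wild-type-labelled cells was 0.34 for Gapdh and Eno1, which was 0.19 in deficient-labelled cells. Gapdh and Ldha gave 0.28 in deficient-labelled cells, the highest there, and 0.32 in wild-type-labelled cells. For Ldha and Ndrg1 rho was -0.11 in deficient-labelled and -0.20 in wild-type-labelled cells. The median over 91 pairs was 0.02 in deficient-labelled and 0.04 in wild-type-labelled cells, and these are descriptions over cells of 1 library each.

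Cells were next sorted into 8 exclusive classes by the cytokines they made, a cytokine counting as made at 5 or more UMIs per 5000. The classes differ in size: Ifng producers with Il2 but no Il17a were 238 of the deficient-labelled cells and 28 of the wild-type-labelled cells, and Il17a producers with Il2 were 93 deficient-labelled and 374 wild-type-labelled cells. In wild-type-labelled cells the glycolysis share was highest in Il17a producers without Il2 (0.544% of UMIs, 210 cells) and lowest in Il2 producers without the other 3 cytokines (0.349%, 77 cells). In deficient-labelled cells it was highest in the 35 cells with both Il17a and Ifng (0.445%) and next in the 39 Il17a producers without Il2 (0.434%). The lowest share there was 0.345%, in the Ifng producers with Il2. Il17a producers with Il2 did not stand out, at 0.381% in deficient-labelled cells and 0.375% in wild-type-labelled cells. The hypoxia share lay between 0.0497% and 0.0707% in deficient-labelled classes and between 0.0597% and 0.0711% in wild-type-labelled classes.

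**Figure D4:**
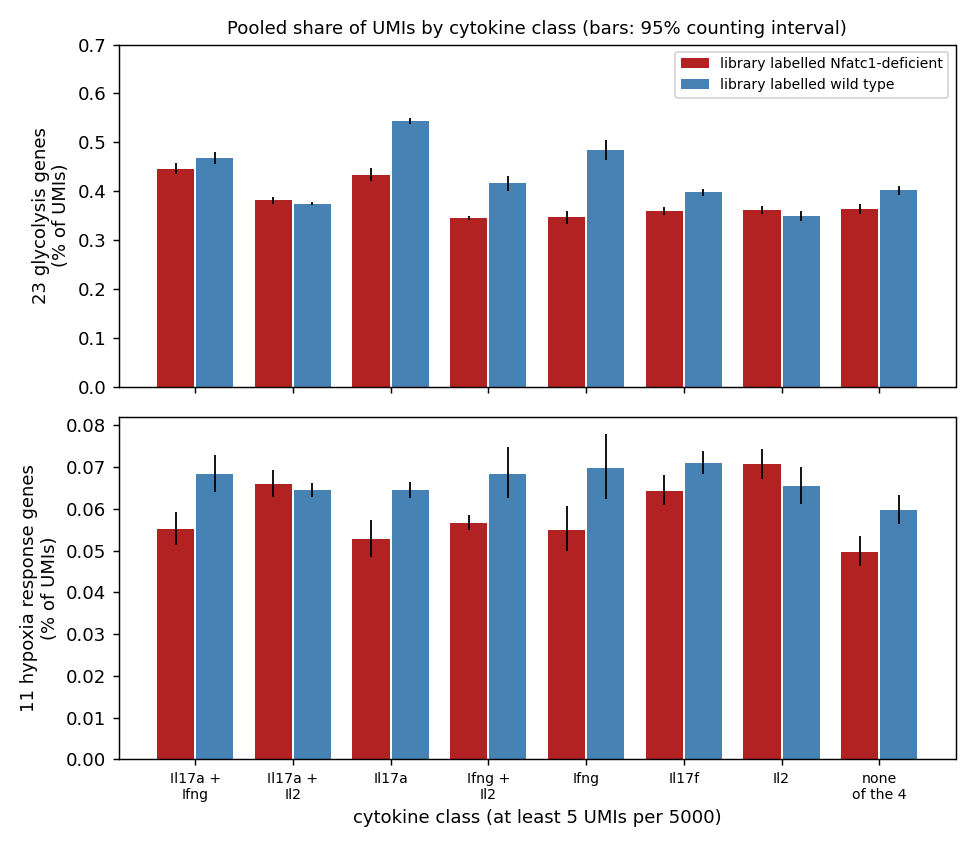
Pooled share of UMIs (%) of the 23 glycolysis genes (upper panel) and the 11 hypoxia response genes (lower panel) in 8 cytokine classes, for the library labelled Nfatc1-deficient (red) and the library labelled wild type (blue), with 95% counting intervals. The highest glycolysis bar, 0.544%, is that of wild-type-labelled Il17a producers without Il2.

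Ifng producers were set against Il17a producers within each library, leaving out cells that made both. In deficient-labelled cells, with 267 Ifng and 132 Il17a producers, the median log2 ratio was -0.27 for glycolysis and -0.24 for the hypoxia genes, beside -0.26 for all genes. In wild-type-labelled cells, with 50 Ifng and 584 Il17a producers, it was -0.12 for glycolysis and -0.20 for the hypoxia genes, beside -0.11 for all genes. The members as lists therefore stood where other genes did. Hilpda was higher in both libraries. It had 117 CPM in Ifng producers against 70.9 CPM in Il17a producers of the deficient-labelled library, and 87.0 CPM in Ifng producers against 44.3 CPM in Il17a producers of the wild-type-labelled library, 1.96-fold higher (1.58 to 2.42). It was the only member at least 1.5-fold higher in each library, against 1.97% of 5672 genes in the deficient-labelled and 4.64% of 5523 genes in the wild-type-labelled library. At least 1.5-fold lower in Ifng producers were Bnip3l and Kdm3a in the deficient-labelled library, against 17.9% of genes, and 0 members in the wild-type-labelled library, against 8.0%. Bnip3l there stood at 14.6 CPM in Ifng producers and 40.2 CPM in Il17a producers.

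Within Il17a producers that made no Ifng, cells without Il2 carried more of several glycolytic transcripts than cells with Il2, and the folds were wider in the wild-type-labelled library. This contrast was chosen after the class values were seen, and its values are a description. In wild-type-labelled cells Eno1 stood at 230 CPM without Il2 and 88.8 CPM with Il2, 2.59-fold higher (2.38 to 2.83). Ldha had 734 CPM without and 330 CPM with Il2, 2.22-fold higher (2.12 to 2.33). Tpi1 had 230 CPM without and 101 CPM with Il2, 2.28-fold higher (2.10 to 2.48). Gapdh, at 1394 CPM without and 876 CPM with Il2, and Pgk1, at 516 CPM without and 335 CPM with Il2, were also past 1.5-fold. Slc16a3, which is below 20 CPM, was at 19.2 CPM without and 5.96 CPM with Il2, in the same order as Ldha. The more abundant lactate carrier Slc16a1 stood in the opposite order, at 78.6 CPM without and 96.2 CPM with Il2. In deficient-labelled cells the genes of the first order lay closer together. Eno1 had 145 CPM without and 86.3 CPM with Il2, and Ldha 491 CPM without and 333 CPM with. Tpi1 had 118 CPM without and 101 CPM with, and Pgk1 271 CPM without and 263 CPM with Il2. Slc16a3 was level there, at 5.62 CPM without and 5.86 CPM with Il2, from 6 and 14 UMIs. Slc16a1 was again lower without Il2, at 63.7 CPM without and 89.2 CPM with.

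Hypoxia members went both ways in that contrast. In wild-type-labelled cells Egln3 had 39.7 CPM without and 11.9 CPM with Il2, 3.33-fold higher (2.65 to 4.21), with Egln1 at 57.1 CPM without and 35.8 CPM with Il2 and Bnip3l at 53.1 CPM without and 27.8 CPM with Il2. Ndrg1 stood in the opposite order, at 120 CPM without and 250 CPM with Il2 in wild-type-labelled cells, and at 83.4 CPM without and 184 CPM with Il2 in deficient-labelled cells. Vegfa and Hilpda were close to level in wild-type-labelled cells, at 26.3 CPM without and 22.9 CPM with Il2 and at 45.6 CPM without and 43.3 CPM with Il2. In deficient-labelled cells Hilpda was lower without Il2, at 46.8 CPM without and 81.7 CPM with Il2. Bnip3 there had 4 UMIs without and 49 with Il2, of which 45 lay in 1 cell.

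Counted by the same rule, 8 members were at least 1.5-fold higher without Il2 in wild-type-labelled cells (Tpi1, Gapdh, Pgk1, Eno1, Ldha, Egln1, Egln3 and Bnip3l), against 14.2% of 5654 genes, and 1 was lower (Ndrg1), against 3.08%. In deficient-labelled cells 4 were higher (Slc2a3, Eno1, Bnip3l and Ankrd37), against 12.5% of 6012 genes, and 3 lower (Hilpda, Bnip3 and Ndrg1), against 6.57%. The glycolysis median was 0.35 in wild-type-labelled cells, with 21 of 23 members higher. Over all genes the median there was 0.17, with 7471 of 11366 higher. In deficient-labelled cells the glycolysis median was 0.03, with 13 of 22 members higher. Over all genes it was 0.07 there, with 6301 of 11367 higher. That glycolysis median took either sign among the alternatives, from -0.11 to 0.20. Called G1 were 69.2% of deficient-labelled cells without Il2 and 75.3% of those with it, and 58.6% of wild-type-labelled cells without Il2 and 71.1% of those with it. Among wild-type-labelled cells called G1 the log2 ratios of Eno1, Tpi1 and Ldha were 0.88, 0.84 and 0.75, against 1.37, 1.18 and 1.15 in all phases, and that of Gapdh was 0.26 against 0.67. Whether the Il2 contrast differs between the libraries was not tested.

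**Figure D5:**
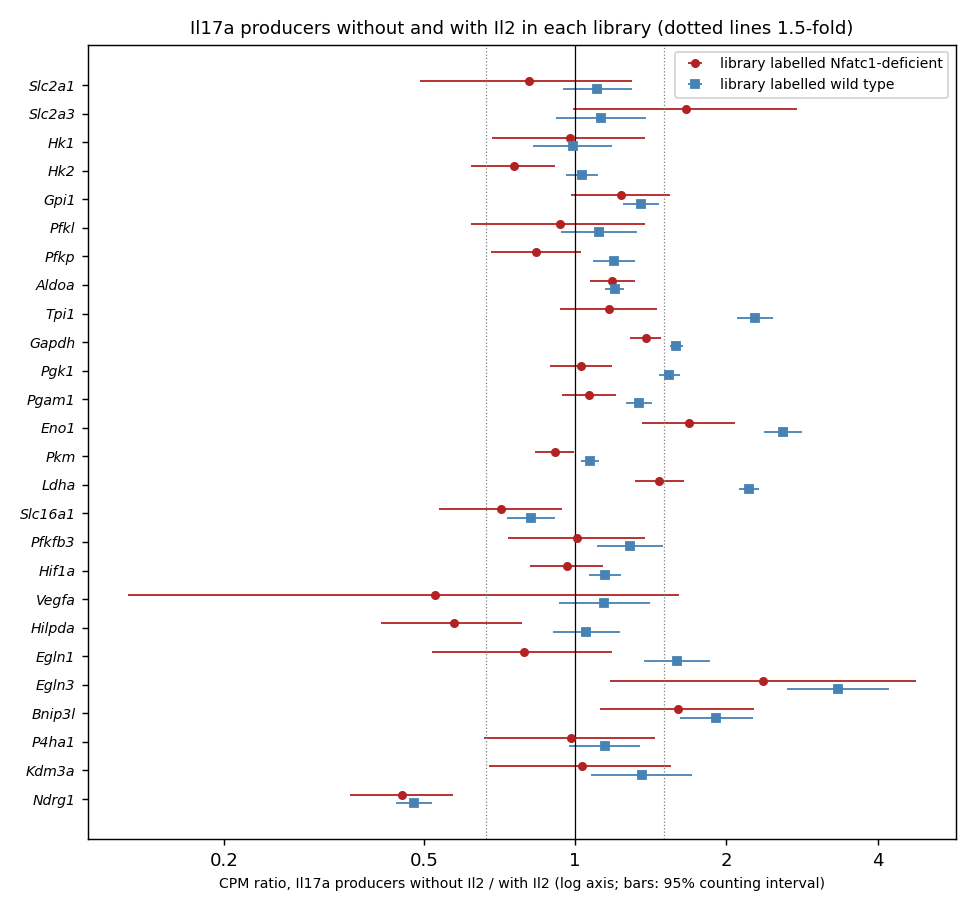
Ratio of CPM, Il17a producers without Il2 over Il17a producers with Il2 (log axis), for members of at least 20 CPM in the library labelled Nfatc1-deficient (circles) and the library labelled wild type (squares), with 95% counting intervals. In wild-type-labelled cells Eno1 (2.59), Tpi1 (2.28), Ldha (2.22) and Egln3 (3.33) lie far right, and Ndrg1 lies left of 1 in both libraries (0.453 in deficient-labelled and 0.479 in wild-type-labelled cells).

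The library difference was then read inside the 4 classes with at least 40 cells in each library, which are Il17a with Il2, Il17f, Il2 and none of the 4 cytokines. The Il17f class held cells without Il17a or Ifng, with or without Il2. A list of cytokine genes took 6.03% of its UMIs in deficient-labelled and 2.18% in wild-type-labelled cells. In the Il2 class it took 7.39% in deficient-labelled and 2.72% in wild-type-labelled cells. The classes thus do not hold cytokine levels fixed, and the part of Il2 in the Il17f ratios was not tested. The glycolysis medians in the 4 classes were -0.06, -0.31, 0.01 and -0.08, beside 0.17, 0.02, 0.10 and 0.07 for all genes. For the hypoxia members they were 0.15, -0.10, 0.03 and -0.14. Vegfa was lower in deficient-labelled cells in 4 of 4 classes, by between 1.56 and 2.55 on the log2 scale, and Pgk1 was lower in 4 of 4, by between 0.34 and 0.80. These were the 2 of 26 members whose ratio had an interval below 1 in each class, against 4.80% of all 5584 genes. An interval above 1 in each class was found for 0 members, against 6.68% of genes. Hilpda, Pfkp, Pkm and Hk1 had one in 3 of the 4 classes, all except the cells with none of the 4 cytokines. In that class Hilpda stood at 65.9 CPM in deficient-labelled and 51.7 CPM in wild-type-labelled cells. Gpi1, Tpi1, Gapdh, Eno1, Ldha and Ndrg1 had an interval below 1 in 3 of the 4 classes.

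Other members depended on the class. Tpi1 was level in Il17a producers with Il2, at 101 CPM in deficient-labelled and 101 CPM in wild-type-labelled cells, and lower in the other 3 classes, such as 62.1 CPM in deficient-labelled against 97.6 CPM in wild-type-labelled Il2 producers. Eno1 was likewise close in Il17a producers with Il2, at 86.3 CPM in deficient-labelled and 88.8 CPM in wild-type-labelled cells, and apart in Il17f producers, at 61.7 CPM in deficient-labelled and 105 CPM in wild-type-labelled cells. Slc16a3 was level in Il17a producers with Il2, at 5.86 CPM in deficient-labelled and 5.96 CPM in wild-type-labelled cells, 0.98-fold (0.50 to 1.80). It was lower in Il17f producers, at 0.206-fold (0.053 to 0.578), and with none of the 4 cytokines, at 0.250-fold (0.046 to 0.883). Il2 producers held 1 Slc16a3 UMI in each library. Egln3 was lower in 3 classes, but only in Il17f producers did the interval lie below 1, at 0.283-fold (0.164 to 0.462). In Il2 producers it was at 10.9 CPM in deficient-labelled against 8.45 CPM in wild-type-labelled cells. These came from 23 deficient-labelled and 11 wild-type-labelled UMIs, with overlapping intervals. Bnip3l was lower in the deficient-labelled library as a whole. In each of the 4 classes its ratio was above 1, but each interval included 1. With none of the 4 cytokines it was at 52.3 CPM in deficient-labelled against 46.8 CPM in wild-type-labelled cells, 1.12-fold (0.81 to 1.54). The class with the most deficient-labelled cells, Ifng with Il2, had a low Bnip3l level of 13.7 CPM in the deficient-labelled library. In the Il17a producers without Il2, where 39 deficient-labelled cells fall short of 40, Eno1 stood at 145 CPM in deficient-labelled and 230 CPM in wild-type-labelled cells, and Pgk1 at 271 CPM in deficient-labelled and 516 CPM in wild-type-labelled cells.

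Cell cycle phase went with the glycolysis share. It was 0.343%, 0.387% and 0.445% of UMIs in deficient-labelled cells called G1, S and G2/M, and 0.388%, 0.453% and 0.529% in wild-type-labelled cells, so it was lower in deficient-labelled cells in each phase. The hypoxia share ran the other way over the phases, at 0.0619%, 0.0575% and 0.0521% in deficient-labelled cells and 0.0676%, 0.0638% and 0.0614% in wild-type-labelled cells. Cells called G1 made up 72.3% of the deficient-labelled library and 66.3% of the wild-type-labelled library. After thinning, the median glycolysis count moved less, between 17 and 18 over the phases in deficient-labelled cells and between 18 and 19 in wild-type-labelled cells. Pooled sums weigh deeper cells more, and G2/M cells were deeper, with medians of 30338 UMIs in deficient-labelled and 29156 UMIs in wild-type-labelled cells.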

How the data were processed

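The authors deposited a matrix of raw UMI counts for each library. Cell Ranger 7.0.0 wrote it, per the file headers, and mm10 was the genome build, per the submitters' processing notes. No source used here gives the annotation or says whether introns were counted. The matrices also hold 12 multiplexing tags, which took 4.20% of counts (deficient-labelled library) and 3.83% (wild-type-labelled library) and were left out of totals.

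From these counts, each member's UMIs were summed over the cells of a library and scaled to CPM. A UMI is worth 0.0559 CPM in the deficient-labelled and 0.0409 CPM in the wild-type-labelled library, while the 3 counts that a 0 allows are worth 0.168 CPM (deficient-labelled) and 0.123 CPM (wild-type-labelled). Sums have exact Poisson, shares exact binomial (Clopper-Pearson) and ratios conditional binomial intervals, all for counting error only. Folds are ratios of CPM, while log2 ratios carry a pseudocount of 1 CPM and understate those of low genes. For classes, phases and per-cell sums, cells were thinned without replacement to 5000 UMIs. Phases came from scanpy 1.11.5 scores, and Scrublet doublets, 6 deficient-labelled and 5 wild-type-labelled, were kept. Gene coordinates come from GENCODE M21 (mm10) and promoters from RefSeq. The scripts were tested on simulated counts.

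All 34 members are named. Of the wider lists, the 2 highest and 2 lowest ratios among genes of at least 20 CPM are named, except 1 gene that is not reported here. The members and lists were chosen with earlier results of these data known. Alternatives were edgeR 4.0.16 TMM and DESeq2 1.42.0 median ratio scaling in R 4.3.3, other totals, pseudocounts, floors, barcode filters, thinning depths and producer limits, per-cell means, G1 cells only, no doublets and equal class weights. Python 3.11.15 was used with pandas 2.3.3, SciPy 1.17.1 and NumPy 2.4.6.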

Additional observations from a re-analysis of the deposited data

Results flagged for a closer look

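For 3 members the sign of a contrast between cytokine classes was opposite in the libraries, and in none of these cases was the difference between the libraries tested. Hif1a in Ifng against Il17a producers had a log2 ratio of -0.19 in the deficient-labelled library and 0.20 in the wild-type-labelled library. Pkm in Il17a producers without against with Il2 had -0.13 (deficient-labelled) and 0.099 (wild-type-labelled). Bnip3 in the same contrast had -2.18 (deficient-labelled) and 1.47 (wild-type-labelled), and 45 of the 49 Bnip3 UMIs of deficient-labelled Il17a producers with Il2 lay in 1 cell.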

How the results depend on the processing

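No paired analysis was possible because each group has 1 library, and for the same reason no library could be left out. The median log2 ratio between the libraries ran from -0.31 to -0.15 for glycolysis and from -0.37 to -0.025 for hypoxia members over 14 alternatives. Equal class weights moved the median of all genes by 0.10. The counts moved most with the floor: with none, 7 glycolysis members were at least 1.5-fold lower and 4 of all members at least 2-fold lower, and at 50 CPM 0 hypoxia members were 1.5-fold lower and 0 members 2-fold lower. As a mean of per-cell CPM, 1 member was 2-fold lower, and in thinned cells 1 was 2-fold higher. With equal class weights, 0 glycolysis members were 1.5-fold lower, 1 was 1.5-fold higher and 1 member 2-fold lower. Equal weights leave out Il17a producers with Ifng, Il17a producers without Il2, and Ifng producers with or without Il2. Each of these classes has under 40 cells in at least 1 library. The Bnip3 contrast without against with Il2 in deficient-labelled cells, -2.18, was 0.083 with producers taken from 1 UMI. The cause of these shifts was not tested. The signs of Slc2a3, Pfkl, Pfkm, Aldoa, Slc16a1, Bnip3, Bnip3l and Ankrd37 turned under at least 1 alternative. Depth limits Pfkm, Pfkfb4, Aldoc and Ldhb most, with 10 to 36 UMIs in the deficient-labelled library.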
